A study of Danio rerio with 6 samples.

Results

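The genes of the antigen processing and presentation machinery were followed in ddx4-L mutant and WT zebrafish ovaries. They comprise the major histocompatibility complex (MHC) class I and class II genes, the peptide transporter and loading genes, the immunoproteasome and the proteasome itself. Members were taken by gene symbol, from every symbol that begins with mhc1, mhc2, psma, psmb, psme, cd74, tapbp, b2m or ciita, or that is tap1 or tap2 with any suffix. This gave 78 of the 32519 genes in the table, among them 11 haplotype-variable MHC region genes and 17 constitutive proteasome subunits. The 11 are the U lineage class I genes mhc1uba, mhc1uca and mhc1uma, the beta subunit genes PSMB8, PSMB9, psmb12 and psmb13a, and tap2a, tap2t, tapbp.1 and tapbp.2. They were grouped by symbol and not from these data. Its symbol alone put tap2t in this group, as it is not next to the others in the RefSeq gene order.

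The proteasome degrades cytosolic proteins to peptides, and its catalytic beta subunits can be exchanged for inducible ones to form the immunoproteasome. The TAP transporter carries the peptides into the endoplasmic reticulum, where tapasin and its partners load them onto class I molecules, while class II molecules are guarded by the invariant chain Cd74 and loaded in lysosomal compartments. In zebrafish the classical class I genes, several inducible subunits and tap2 genes lie close together, and individual fish can carry haplotypes with different sets of these genes. The constitutive proteasome is needed in every cell, and class II genes are known from professional antigen-presenting leukocytes.

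Ovaries of ddx4-L mutant and WT zebrafish, both at 6 months post-fertilization, were compared, with 3 libraries from 3 fish of each genotype. The mutant, ddx4-E4Δ in the sample titles, is a CRISPR-Cas9 line with a short deletion in the alternative exon of the ovary-biased ddx4 transcript. The shorter transcript of the same gene remains in the mutant. Whether the fish shared parents or tanks is not given in the sources used here, and the p-values measure only the spread between these libraries.

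The deposited counts summed to 76520483 to 86263179 per library. The DDX4 gene, whose counts do not tell its transcripts apart, had 231, 248 and 250.5 CPM (counts relative to the TMM-scaled library total) in mutant libraries 1, 2 and 3 and 215, 241 and 211 CPM in WT libraries 1, 2 and 3, so its level gives no check of the genotype. Its log2 fold change was 0.13 (adjusted p = 0.47). Of 19353 genes tested with edgeR, 884 had an adjusted p under 0.05, with 379 higher and 505 lower in the mutant, and total-count scaling gave 533 higher and 411 lower. All 6 oocyte markers were detected, at mean levels of 39.97 CPM or more in each genotype, and 1 was called, GDF9, with a log2 fold change of -0.82 (adjusted p = 0.0064). None of 8 granulosa and theca markers, 3 erythrocyte markers and 3 testis germ cell markers was called.

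Of the 78 genes, 10 had no counts in any library and another 6 did not exceed 12 counts in any library. A count of 12 is the level of about 3 sequenced fragments in this table, equal to 0.142 to 0.161 CPM, and a lower level cannot be told from 0. The low-count filter kept 56 of the genes. Only tap2t was called, which is 1.79% of the 56, against 4.57% of all genes tested. A further 7 had an unadjusted p under 0.05 without being called. DESeq2 called 6 of 61, or 9.84%, against 11.2% of all genes: PSME1, TAP1, mhc1lda, mhc1zaa, psma6l and tap2t. In 17 of the 56, or 30.4%, the values of the genotypes did not overlap, against 28.4% of all genes tested. The log2 fold change was above 0 for 42 and below 0 for 14, with a median of 0.22, against 0.014 over all genes tested. These numbers varied with the library left out. Without WT library 3, 41 were above 0 and 15 below, with a median of 0.33. Without WT library 1, 35 were above 0 and 21 below, with a median of 0.12. Without mutant library 3, 36 were above 0 and 20 below, with a median of 0.20. The shares of called and of separated genes were thus near or below those of the ovary transcriptome at large.

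**Figure D1:**
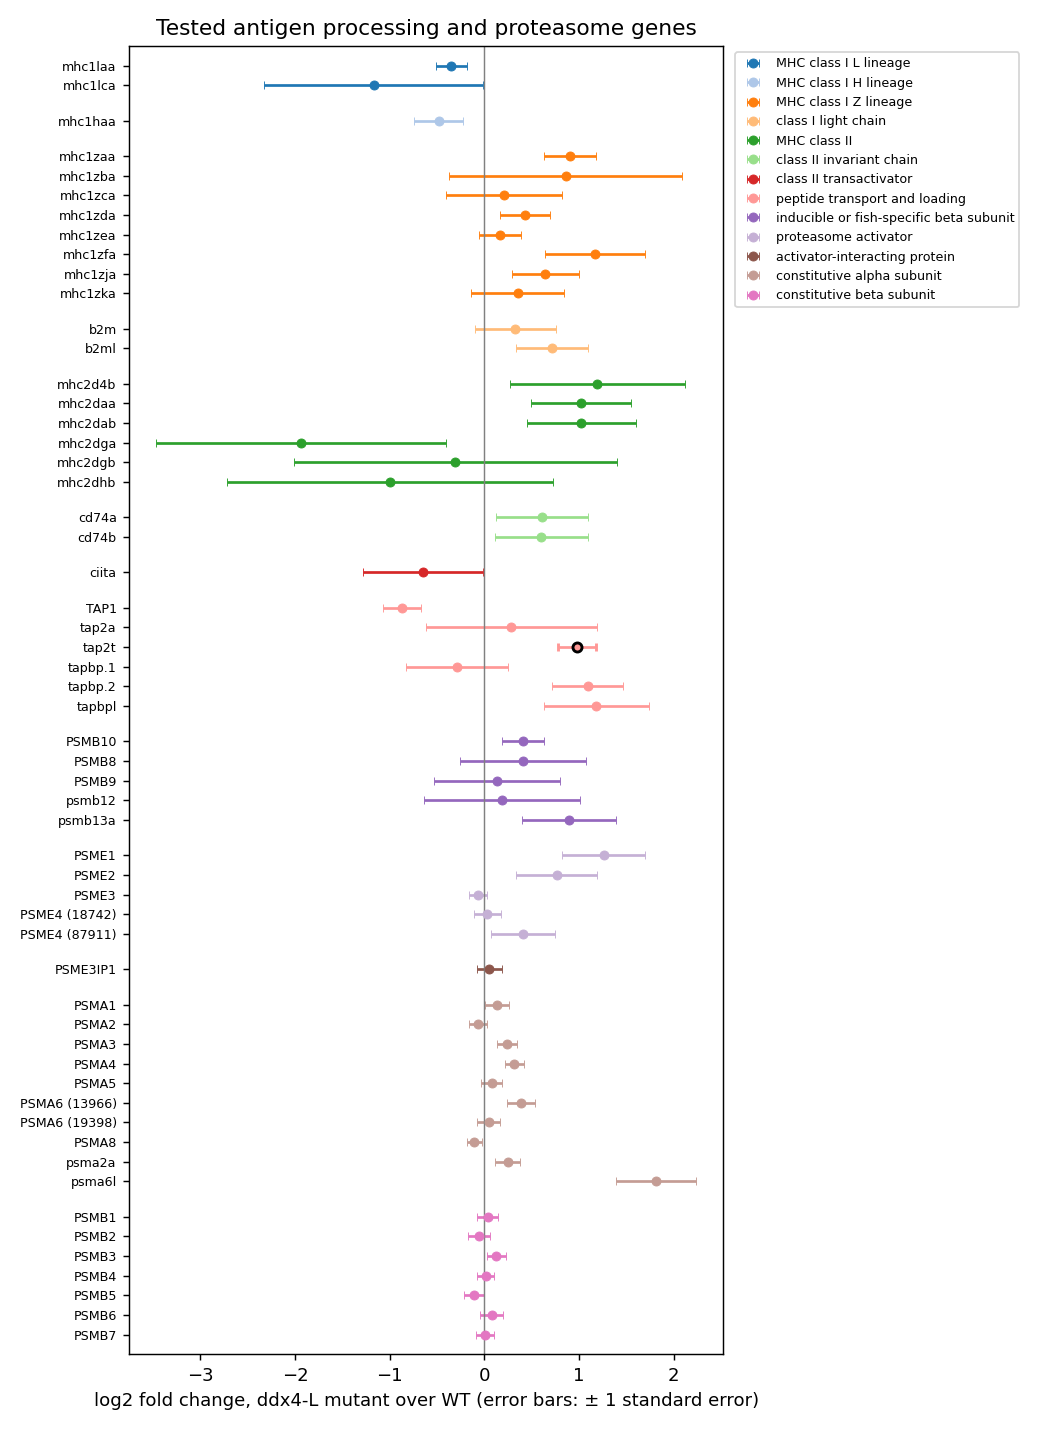
Log2 fold change of the ddx4-L mutant over WT (x axis) for the 56 tested genes, grouped and coloured by role, with bars of 1 standard error (3 libraries of each genotype). The black ring marks tap2t, the only gene called. Constitutive proteasome subunits other than psma6l lie between -0.11 and 0.39, whereas class II genes with few counts have wide bars. Numbers in brackets are the last digits of the gene ID where genes share a symbol.

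The TAP transporter pumps peptides into the endoplasmic reticulum as a pair of Tap1 and Tap2, and the differences in tap2t and TAP1 had opposite signs. For tap2t (ENSDARG00000033446), one of the tap2 genes of teleost fish, 16.4, 15.9 and 18.6 CPM were measured in the mutant libraries and 7.92, 10.8 and 7.13 CPM in the WT libraries. Every mutant library was above every WT library. The mean was 17.0 ± 1.40 CPM in the mutant and 8.61 ± 1.91 CPM in WT (SD, n = 3 each), which gave a log2 fold change of 0.98 (standard error, SE, 0.21) and, in edgeR, an adjusted p of 0.044. The call lay close to the threshold. With 1 library left out it held in 1 of 6 fits, the one without WT library 2, with adjusted p of 0.038 to 0.129 and log2 fold changes of 0.86 to 1.17. DESeq2 gave an adjusted p of 0.00021.

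TAP1 (ENSDARG00000079766), the gene of the Tap1 subunit, had 5.97, 6.89 and 5.99 CPM in the mutant and 12.4, 12.6 and 9.56 CPM in WT. Whether the product of tap2t pairs with Tap1 was not tested. Here every mutant library was below every WT library. Its log2 fold change was -0.87 (SE 0.20) with an adjusted p of 0.059 from edgeR, which missed the threshold, and an adjusted p of 0.00085 from DESeq2. The size of the difference was therefore close to that of tap2t with the opposite sign. The remaining transporter gene, tap2a, had few counts, with 71, 14 and 36 counts in the mutant and 5, 46 and 46 counts in WT, and the genotypes overlapped (log2 fold change 0.28, adjusted p = 0.90).

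Tapasin bridges the transporter and the class I molecule during peptide loading. The tapasin gene tapbp.2 had 5.88, 2.498 and 4.43 CPM in the mutant and 1.75, 2.13 and 2.12 CPM in WT. The genotypes did not overlap, but the mutant libraries were spread widely, and the log2 fold change of 1.09 (SE 0.37) was not called (adjusted p = 0.16). The neighbouring tapasin gene, tapbp.1, had 2.71, 1.83 and 2.76 CPM in the mutant and 3.56, 4.37 and 0.985 CPM in WT. WT library 3 was the lowest of all and WT library 2 the highest, so that the genotypes overlapped (log2 fold change -0.29, adjusted p = 0.82). The tapasin-like gene tapbpl, whose mammalian counterpart edits the peptides on class I, had 1.76, 1.32 and 0.896 CPM in the mutant and 0.255, 0.689 and 0.807 CPM in WT. These values did not overlap either, and the log2 fold change of 1.18 (SE 0.55) was not called (adjusted p = 0.29).

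**Figure D2:**
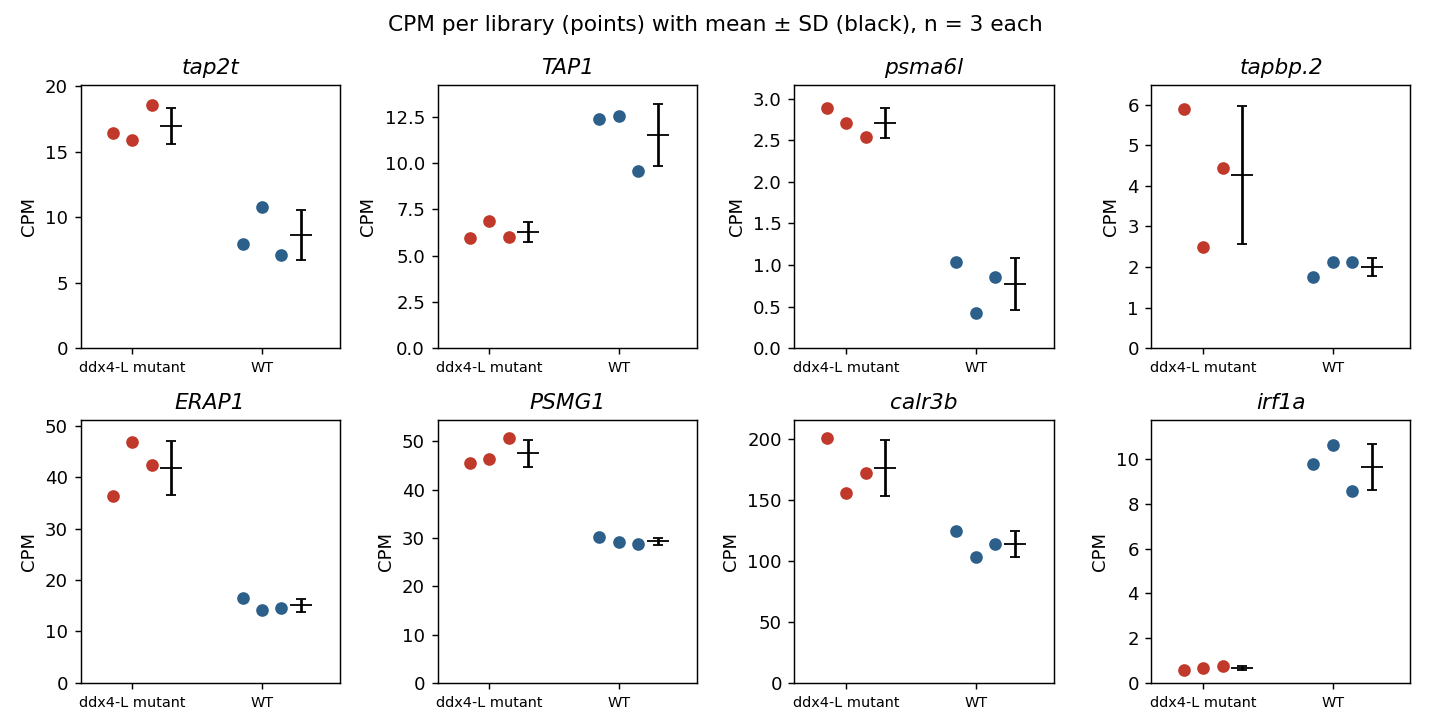
CPM per library (y axis, starting at 0) for 8 genes, with the ddx4-L mutant left of WT and the mean ± SD of 3 libraries in black. In tap2t, psma6l, tapbp.2, ERAP1, PSMG1 and calr3b every mutant library lies above every WT library, and in TAP1 and irf1a every mutant library lies below. TAP1, psma6l and tapbp.2 were not called by edgeR.

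Among the 11 haplotype-variable genes, 8 were tested and tap2t was the only call. The log2 fold change was above 0 in 7 of the 8, with a median of 0.35 against 0.014 for all genes tested. The libraries disagreed on this direction: without WT library 1 the median was -0.07, with 3 above 0 and 5 below 0, and without WT library 3 it was 0.90. In the gene order of the RefSeq assembly GRCz12tu, tap2t is not next to the others. Leaving it out, 7 tested genes remained, of which 0 were called by edgeR or DESeq2, 1 had an unadjusted p under 0.05 (tapbp.2), and the median was 0.28. In that order the run goes from tapbp.1 through a class I gene that RefSeq names mhc1uka and the table mhc1uca, tapbp.2, mhc1uba, psmb13a, psmb8a, psmb12 and psmb9a to tap2a. The 10 coding genes on each side of this run were looked up as well, and 0 of the 13 that were tested were called. Against 4.57% of all genes tested, 0 calls in so few genes says little. The lowest adjusted p among them was 0.065 in edgeR, for si:ch73-367f21.6 (log2 fold change 3.21). The models of psmb13a, psmb8a and psmb12 overlap each other in RefSeq. If strand was not used in the counting, which is not given, reads from the shared parts could not be told apart. In mutant library 2 the counts were 44 for psmb13a, 78 for PSMB8 and 389 for psmb12. In mutant library 1 they were closer, at 80, 109 and 89. How far reads were shared between these genes was not tested.

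Reads were mapped to 1 reference genome, while MHC genes can differ or be missing between fish, so that a count of 0 says only that no read was assigned to the reference copy. Genes that were at 0 in at least 1 library and had 48 counts or more in another were therefore listed, a rule chosen after the values were seen. This held for 7 of the 57 members with 48 counts or more in a library, or 12.3%, against 6.22% of all such genes. It held for 0 of the 17 constitutive subunits, which apart from psma6l had 1420 counts or more in every library. These shares were not matched for count level, so they cannot separate the kind of gene from its level. None of the 7 was called by edgeR, but mhc1uba, mhc1lga and mhc1lda were removed by its low-count filter and could not be called. DESeq2 called 1 of the 7 (mhc1lda, adjusted p = 0.032).

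The classical class I heavy chain gene mhc1uba, the only U lineage gene with more than 20 counts in a library, had 0 counts in all 3 mutant libraries and 235, 587 and 0 counts in WT libraries 1, 2 and 3. WT library 3 was thus like the mutant libraries, and the gene was removed by the low-count filter. With all libraries DESeq2 gave an adjusted p of 0.056. In edgeR it was called without WT library 3 (adjusted p = 0.019). That fit leaves out the only WT library at 0, so its call cannot be read as a difference between the genotypes. The L lineage gene mhc1lga, of a nonclassical class I lineage of teleosts, had 0, 0 and 5 counts in the mutant and 49, 55 and 0 counts in WT. It was high in the same WT libraries 1 and 2 as mhc1uba. Its relative mhc1lda had 69, 5 and 49 counts in the mutant and 0, 4 and 0 counts in WT. Mutant libraries 1 and 3 were above the floor of 12 counts, while mutant library 2 and all WT libraries were under it and cannot be told apart.

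A class II group shared its zeros. The alpha chain gene mhc2dga had 38, 0 and 0 counts in mutant libraries 1, 2 and 3 and 38, 41 and 60 counts in WT libraries 1, 2 and 3. The beta chain gene mhc2dgb had 97, 0 and 0 counts in the mutant and 17, 30 and 69 counts in WT. For mhc2dhb the values were 214, 0 and 0 counts in the mutant and 102, 101 and 205 counts in WT. The 3 genes were at 0 in mutant libraries 2 and 3 and present in the other 4 libraries, and they follow each other directly in the RefSeq gene order. The next gene in that order, mhc2daa, had 970, 549 and 1391 counts in the mutant and 169, 477 and 783 counts in WT, and so was present in all libraries. Of the 20 coding genes nearest to this run, 10 on each side, 10 were tested and 0 were called, against 4.57% of all genes tested. The fitted log2 fold changes were -1.93 for mhc2dga, -0.31 for mhc2dgb and -0.997 for mhc2dhb, and none was called (adjusted p of 0.54, 0.94 and 0.80). Without mutant library 1 mhc2dhb was called by edgeR (adjusted p = 0.027). That fit leaves out the only mutant library with counts of this gene, so its call cannot be read as a difference between the genotypes.

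In the Z lineage, mhc1zba had 255, 212 and 179 counts in the mutant and 0, 192 and 161 counts in WT. Only WT library 1 was at 0, and the other 5 libraries were alike in level. Whether the zeros in these 7 genes came from gene content, from sequence differences to the reference or from expression was not tested.

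**Figure D3:**
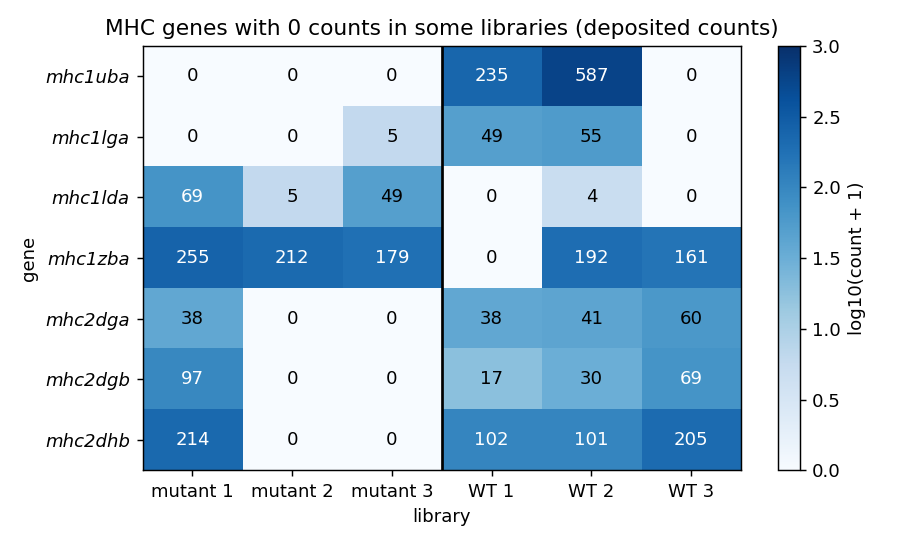
Deposited counts of the 7 MHC genes with 0 counts in at least 1 library and 48 or more in another, with the 3 mutant libraries left of the 3 WT libraries and colour on a log10(count + 1) scale. No gene is at 0 in all libraries of 1 genotype and above 0 in all of the other. The gene mhc1uba is at 0 in the 3 mutant libraries and WT 3, and mhc1zba in WT 1 alone. The genes mhc2dga, mhc2dgb and mhc2dhb are at 0 in mutant 2 and mutant 3. Counts above 12 are found only in WT 1 and WT 2 for mhc1uba and mhc1lga, and only in mutant 1 and mutant 3 for mhc1lda.

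The Z lineage, a class I lineage with a conserved peptide-binding groove, had all 8 of its genes tested. All 8 log2 fold changes were above 0, between 0.17 and 1.17 with a median of 0.54, and they remained above 0 under all 4 scalings and with any 1 library left out. None was called by edgeR and 1 had an unadjusted p under 0.05, mhc1zaa. This gene had 4.19, 3.86 and 3.29 CPM in the mutant and 1.85, 2.20 and 2.00 CPM in WT. The genotypes were well apart in level, with a log2 fold change of 0.90 (SE 0.28), an adjusted p of 0.13 from edgeR and 0.026 from DESeq2. The Z lineage gene with the highest CPM, mhc1zea, had 11.3, 11.2 and 8.16 CPM in the mutant and 8.19, 10.8 and 8.19 CPM in WT, which overlapped (log2 fold change 0.17, adjusted p = 0.73). Reads from near-identical Z genes may be shared between them, so the 8 values are not independent.

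Of the other class I genes, mhc1laa and mhc1haa had the highest CPM, a scale that does not account for gene length. The L lineage gene mhc1laa had 14.4, 16.8 and 19.8 CPM in the mutant and 22.5, 23.1 and 19.3 CPM in WT. Only mutant library 3 reached into the WT range, and the log2 fold change of -0.35 was not called (adjusted p = 0.30). The H lineage gene mhc1haa, the only member of its lineage in the table, had 11.02, 8.19 and 5.71 CPM in the mutant and 12.01, 11.4 and 11.4 CPM in WT. The mutant libraries lay below all WT libraries but spread widely, and the log2 fold change of -0.48 was not called (adjusted p = 0.36). Of the 9 L lineage genes, 3 had no counts in any library and 2 were tested.

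The class I light chain genes, b2m and b2ml, and the class II genes are measured in whole ovary tissue, where fewer cells of a type and less RNA per cell cannot be told apart. The b2m gene had 21.6, 9.82 and 22.8 CPM in the mutant and 8.14, 13.3 and 21.7 CPM in WT. Its paralog b2ml had 28.2, 12.5 and 19.5 CPM in the mutant and 8.31, 10.1 and 18.4 CPM in WT. In both genes mutant library 2 was lowest among the mutant libraries, and WT library 1 was lowest and WT library 3 highest among the WT libraries. The log2 fold changes were 0.33 for b2m (adjusted p = 0.72) and 0.71 for b2ml (adjusted p = 0.36).

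The invariant chain genes, whose product occupies the class II groove until loading, had the same order of libraries. The cd74a gene had 54.8, 22.6 and 41.9 CPM in the mutant and 11.3, 24.6 and 42.3 CPM in WT. The cd74b gene had 14.2, 5.73 and 12.6 CPM in the mutant and 3.41, 6.73 and 11.4 CPM in WT. For both, WT library 3 was within the mutant range and mutant library 2 was below WT library 2. The log2 fold changes of 0.61 (SE 0.49) and 0.60 (SE 0.49) were not called, with adjusted p of 0.55 for cd74a and 0.56 for cd74b.

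Of the 16 class II genes, 5 had no counts in any library and 6 were tested, with 0 called by edgeR or DESeq2 and 0 with an unadjusted p under 0.05. The class II genes with the highest CPM were the alpha chain mhc2daa and the beta chain mhc2dab, each at least 2.19 CPM in every library. For mhc2daa, 11.6, 7.18 and 17.5 CPM were measured in the mutant and 2.27, 6.32 and 9.29 CPM in WT. For mhc2dab the values were 7.45, 6.08 and 17.4 CPM in the mutant and 2.19, 4.48 and 8.55 CPM in WT. Both had a log2 fold change of 1.02, the genotypes overlapped in both, and neither was called (adjusted p of 0.34 and 0.38). A beta chain gene with few counts, mhc2d4b, had 77, 24 and 45 counts in the mutant and 3, 14 and 47 counts in WT, again overlapping (log2 fold change 1.195, adjusted p = 0.53). The class II transactivator gene ciita, the master regulator of class II transcription in mammals, had 42, 19 and 45 counts in the mutant and 42, 26 and 98 counts in WT. Its values overlapped, and its log2 fold change of -0.65 had the opposite sign to those of cd74a, mhc2daa and mhc2dab (adjusted p = 0.63).

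Summed over b2m, b2ml, cd74a, cd74b, mhc2daa and mhc2dab, a group chosen after the values were seen, the level was 137.9, 63.9 and 131.8 CPM in mutant libraries 1, 2 and 3 and 35.6, 65.5 and 111.6 CPM in WT libraries 1, 2 and 3. Mutant library 2 was at the level of WT library 2, and WT library 1 was the lowest of the 6. The same order, with mutant library 2 lowest in its genotype, WT library 1 lowest and WT library 3 highest, was found in 13 of the 39 tested members outside the constitutive proteasome, or 33.3%. It was found in 0 of the 17 constitutive subunits and in 5.41% of all genes tested, and the order was defined from these libraries. Ties were counted, as in mhc2dga and mhc2dgb with 0 in both mutant libraries 2 and 3. Without ties the order was found in 11 of the 39, or 28.2%, against 5.04% of all genes tested. The order was read from the genes summed above, which are themselves counted in both shares. Both shares were therefore partly fixed in advance and are no test of the order. The other 7 of the 13 were PSMB8, PSME2, mhc1zda, mhc2d4b, mhc2dga, mhc2dgb and psmb13a.

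Leukocyte markers differed among themselves in how they varied over the libraries. The 16 markers that are not named MFAP4 included 13 that were tested and 0 that were called by edgeR or DESeq2, with 1 unadjusted p under 0.05, 7 log2 fold changes above 0 and 6 below 0, and 3 of the 13 in the same library order. Their summed level was 73.5, 14.5 and 71.4 CPM in mutant libraries 1, 2 and 3 and 17.9, 15.0 and 46.2 CPM in WT libraries 1, 2 and 3. Mutant libraries 1 and 3 and WT library 3 were the highest in both sums, and marco alone made up 31.7 of the 71.4 CPM in mutant library 3. The pan-leukocyte gene ptprc had 6.07, 1.07 and 3.05 CPM in the mutant and 0.860, 1.43 and 2.91 CPM in WT, and the macrophage receptor gene marco had 19.4, 1.82 and 31.7 CPM in the mutant and 2.39, 0.861 and 11.2 CPM in WT. Other markers did not follow these libraries: the T cell kinase gene ZAP70 had 0.408, 0.811 and 0.568 CPM in the mutant and 1.87, 0.887 and 0.771 CPM in WT, and the lysozyme gene lyz had 0.516, 0.327 and 0.618 CPM in the mutant and 1.14, 0.728 and 0.593 CPM in WT. Both were highest in WT library 1, and lck, cd4-1, ighm and an MPEG1 gene also had log2 fold changes below 0. The markers cd79a of B cells and cd8a of T cells had no counts in any library. The 8 genes named MFAP4, a macrophage-associated gene with several copies in the table, were then added. The sum was 478.4, 98.2 and 142.1 CPM in the mutant and 236.8, 252.8 and 764.9 CPM in WT. This sum had the library order defined above, whereas the sum without MFAP4 was lowest among WT in WT library 2. With MFAP4, mutant library 3 was below every WT library. One of the MFAP4 genes was called, with a log2 fold change of -5.72 (adjusted p = 0.032). The part of leukocyte number in the class II, cd74 and b2m values was not tested.

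**Figure D4:**
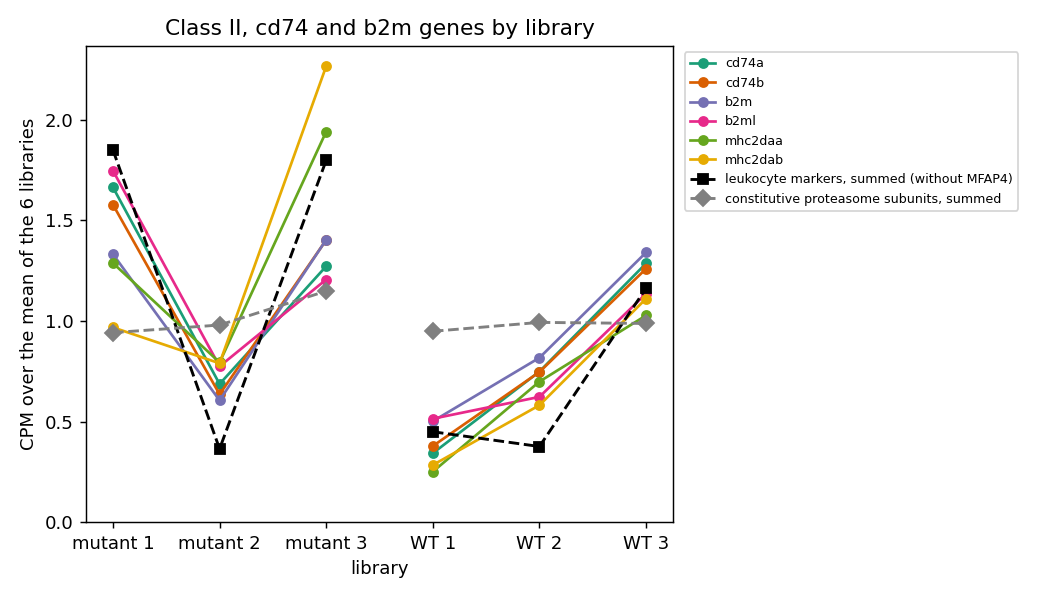
CPM of each gene over its own mean across the 6 libraries (y axis), with mutant libraries left of WT libraries. Lines join the values of 1 gene within a genotype and carry no order in time. The 6 genes and the summed leukocyte markers other than MFAP4 (black squares) dip in mutant 2 and peak among WT in WT 3. Within WT the 6 genes are lowest in WT 1 and the leukocyte sum in WT 2. The summed constitutive subunits (grey diamonds) vary least, with sums between 1521 and 1854 CPM.

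The inducible beta subunits replace the catalytic subunits of the constitutive proteasome, and psmb12 and psmb13a are further beta subunits encoded in the fish class I region. Of 7 such genes 5 were tested. All 5 had log2 fold changes above 0, with 0 called by edgeR or DESeq2 and 0 with an unadjusted p under 0.05. Without WT library 1, 2 were above 0 and 3 below 0, and without mutant library 2, 3 were above 0 and 2 below 0. PSMB10, the only tested one not counted among the haplotype-variable genes, had 14.0, 17.7 and 14.1 CPM in the mutant and 8.56, 12.1 and 13.9 CPM in WT. The genotypes touched without overlapping, and the log2 fold change was 0.41 (adjusted p = 0.37).

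PSMB8 had 1.31, 1.02 and 2.28 CPM in the mutant and 0.376, 0.914 and 2.18 CPM in WT. WT library 3 was above mutant libraries 1 and 2 (log2 fold change 0.41, adjusted p = 0.79). In PSMB9 the values were 0.852, 2.77 and 1.45 CPM in the mutant and 0.483, 1.95 and 2.19 CPM in WT, and in psmb12 they were 1.07, 5.09 and 1.82 CPM in the mutant and 0.497, 2.28 and 4.22 CPM in WT. For both, mutant library 2 was the highest of the 6 and WT library 1 the lowest. Log2 fold changes of 0.13 and 0.19 were fitted (adjusted p of 0.94 and 0.93). The overlapping gene psmb13a had 0.960, 0.575 and 1.08 CPM in the mutant and 0.322, 0.530 and 0.558 CPM in WT. It did not share the high value of mutant library 2, and its log2 fold change of 0.89 (SE 0.49) was not called (adjusted p = 0.37). PSMB11, which encodes the thymus subunit in mammals, had 4 counts in mutant library 3 only, and psmb11b had none.

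PSME1 and PSME2 encode the interferon-inducible activator that caps the proteasome. PSME1 had 5.20, 2.98 and 5.24 CPM in the mutant and 1.33, 1.32 and 2.94 CPM in WT. The lowest mutant library was just above the highest WT library, and the log2 fold change of 1.26 (SE 0.44) had an adjusted p of 0.17 from edgeR and 0.045 from DESeq2. PSME2 had 3.47, 1.71 and 3.86 CPM in the mutant and 1.21, 1.77 and 2.34 CPM in WT. Mutant library 2 lay within the WT range, and the log2 fold change of 0.76 was not called (adjusted p = 0.38). PSME3, the nuclear activator, averaged 166 ± 16.6 CPM in the mutant and 174 ± 4.80 CPM in WT (log2 fold change -0.07, adjusted p = 0.75). The genes named PSME4, whose product is a single-chain activator, averaged 41.6 ± 7.55 CPM in the mutant and 40.6 ± 1.95 CPM in WT for ENSDARG00000018742, and 7.01 ± 3.08 CPM in the mutant and 5.28 ± 0.54 CPM in WT for ENSDARG00000087911. Neither was called (adjusted p of 0.93 and 0.56). PSME3IP1, which encodes a protein that binds an activator and is not one itself, had a log2 fold change of 0.05 (adjusted p = 0.87).

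The constitutive proteasome was expressed in every library, and its summed level differed little between the genotypes. Its 17 genes summed to 1521, 1582 and 1854 CPM in mutant libraries 1, 2 and 3 and to 1532, 1603 and 1595 CPM in WT libraries 1, 2 and 3. Mutant library 3 was above the other 5, which were alike. The mean was 1653 ± 177 CPM in the mutant and 1577 ± 39.0 CPM in WT. None of the 17 was called by edgeR, against 4.57% of all genes tested, and at that share 0 calls in so few genes says little. An unadjusted p under 0.05 was found for 3 (PSMA4, psma6l and the PSMA6 gene ENSDARG00000013966). DESeq2 called psma6l alone, against 11.2% of all genes. In 4 of the 17, or 23.5%, the genotypes did not overlap, against 28.4% of all genes tested. The median log2 fold change was 0.08, with 13 above 0 and 4 below 0, or 15 and 2 under total-count scaling. Without mutant library 3 it was -0.03, with 6 above 0 and 11 below 0.

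The 7 beta subunits, which include the 3 catalytic ones that inducible subunits replace, ranged in log2 fold change from -0.11 to 0.13 with a median of 0.01. PSMB4, the beta subunit with the highest CPM, averaged 150.2 ± 12.7 CPM in the mutant and 149 ± 6.90 CPM in WT (log2 fold change 0.01, adjusted p = 0.95). PSMB5, PSMB6 and PSMB7, the catalytic subunits that are exchanged in the immunoproteasome, had log2 fold changes of -0.11, 0.08 and 0.01. The alpha subunits, which form the outer rings, varied more. PSMA8, for which RefSeq gives psma7 as an older name, averaged 165 ± 9.27 CPM in the mutant and 177 ± 4.50 CPM in WT (log2 fold change -0.11, adjusted p = 0.50). PSMA3 averaged 167 ± 18.0 CPM in the mutant and 141 ± 12.2 CPM in WT (log2 fold change 0.24, adjusted p = 0.27).

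In the gene psma6l (ENSDARG00000043899), a paralog of PSMA6, the difference was far larger than in the other subunits. It had 2.89, 2.71 and 2.54 CPM in the mutant and 1.03, 0.424 and 0.854 CPM in WT. The mutant libraries were close to each other and all above WT. The log2 fold change was 1.81 (SE 0.42), which missed the threshold in edgeR (adjusted p = 0.059) and passed in DESeq2 (adjusted p = 0.0017). In edgeR psma6l passed at 0.040 when all counts were divided by 4, and TAP1 at 0.049. No other scaling or filter gave a call for either gene. With 1 library left out neither was called in edgeR, with adjusted p of 0.096 to 0.143 for psma6l and 0.082 to 0.167 for TAP1. The PSMA6 gene ENSDARG00000013966 had 27.2, 23.7 and 31.2 CPM in the mutant and 22.4, 18.8 and 21.7 CPM in WT, without overlap (log2 fold change 0.39, adjusted p = 0.21). Reads shared between psma6l and the genes named PSMA6 could move between them in the counting. PSMA4, with 112, 127 and 139.8 CPM in the mutant and 99.8, 98.3 and 106 CPM in WT, also did not overlap. Its log2 fold change of 0.32 (SE 0.10) was not called with TMM (adjusted p = 0.13) and was called with total-count scaling (adjusted p = 0.044). Leaving out psma6l, the other 16 constitutive subunits ranged from -0.11 to 0.39 with a median of 0.06 and a median standard error of 0.11.

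The partners of this machinery were counted from lists of other pathway genes, of which 52 were tested, 3 were called higher and 1 lower, or 7.69% against 4.57% of all genes tested, with a median log2 fold change of 0.05. The lists were chosen with earlier results of these data known. ERAP1 (ENSDARG00000013024), the aminopeptidase that trims peptides in the endoplasmic reticulum, had 36.4, 46.8 and 42.4 CPM in the mutant and 16.5, 14.2 and 14.5 CPM in WT. The lowest mutant library was above every WT library by a wide margin, with a log2 fold change of 1.47 (SE 0.14, adjusted p = 0.0033), and the call held with any 1 library left out. The other gene named ERAP1, ENSDARG00000021859, had a log2 fold change of -0.29, and its genotypes did not overlap. It was not called by edgeR (adjusted p = 0.099) and was called lower by DESeq2 (adjusted p = 0.043). The calreticulin-like chaperone gene calr3b had 201, 156 and 173 CPM in the mutant and 124.3, 103 and 114 CPM in WT, without overlap. Its log2 fold change was 0.63 (SE 0.12, adjusted p = 0.032), and with 1 library left out it was called in 1 of 6 fits, with adjusted p of 0.046 to 0.097. Its paralog calr3a had the opposite sign, with means of 588 CPM in the mutant and 747 CPM in WT. The log2 fold change of calr3a was -0.34 and was not called (adjusted p = 0.24). Of the 8 loading and trimming genes tested, 4 had log2 fold changes above 0 and 4 below.

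The assembly chaperone gene PSMG1, whose product helps build the alpha ring, had 45.6, 46.4 and 50.8 CPM in the mutant and 30.2, 29.1 and 28.7 CPM in WT. The libraries of each genotype were tight, and PSMG1 rose by a log2 fold change of 0.70 (SE 0.10, adjusted p = 0.012). It was called in 5 of 6 fits with 1 library left out, and missed without mutant library 2 (adjusted p = 0.051). The remaining 3 assembly genes were not called. In the regulatory particle, which unfolds substrates for the core, 24 genes were tested and 0 were called, against 4.57% of all genes tested. An unadjusted p under 0.05 was found for 2, and DESeq2 called 1, against 11.2% of all genes. In 8 of the 24 the genotypes did not overlap, against 28.4% of all genes tested. The log2 fold changes of the 24 ran from -0.32 to 0.47.

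Among 8 genes for regulators of MHC transcription, irf1a was the only call. It encodes an interferon regulatory factor, and its mammalian counterpart activates class I, TAP and immunoproteasome genes. It had 48, 51 and 60 counts in the mutant and 728, 804 and 724 counts in WT, or 0.667 ± 0.0904 CPM in the mutant and 9.67 ± 1.03 CPM in WT. Every mutant library was far below every WT library. The log2 fold change was -3.86 (SE 0.27, adjusted p = 0.00076), and the call held with any 1 library left out. Its paralog irf1b was not called (log2 fold change -0.62, adjusted p = 0.59), nor were nlrc5, the class I transactivator of mammals (log2 fold change 0.57, adjusted p = 0.64), and rfx5 (log2 fold change 0.06, adjusted p = 0.93). Of 8 tested genes for lysosomal processing of class II peptides, 0 were called by edgeR. One of them, ctss2.1, a cathepsin S gene, had an unadjusted p under 0.05 and was the 1 called by DESeq2 (log2 fold change 0.40, adjusted p = 0.075 from edgeR and 0.012 from DESeq2).

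The neighbours of 3 single genes, and of a Z and an L lineage run, were looked up likewise in the RefSeq order. Around tap2t 13 neighbours were tested and 0 were called, and around psma6l 9 were tested and 0 were called. At the share of 4.57% called over all genes tested, 0 calls in so few genes says little. Around TAP1, which was not called itself, 9 were tested and 2 were called, against 4.57% of all genes tested. Both were lower in the mutant: pbx2, a homeobox gene (log2 fold change -1.13, adjusted p = 0.021), and rad21a, a cohesin gene (log2 fold change -0.36, adjusted p = 0.043). The genes directly beside TAP1, notchl and brd2b, were not called (log2 fold changes -0.10 and -0.14). Around the Z and L lineage runs 10 and 9 neighbours were tested, and 0 were called in each. With so few genes tested, the 2 calls near TAP1 say little as well.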

How the data were processed

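RNA from 3 ddx4-L mutant and 3 WT ovaries was sequenced. According to the methods of the study, adapters were removed with Cutadapt, STAR aligned the reads to GRCz11 and featureCounts assigned them to genes, whereas the submitters' processing notes name HISAT2, StringTie, RSEM and DESeq2. The library kits named also differ, and the annotation, strand setting and handling of multiply mapped reads are not given in the sources used here. The table deposited by the authors was treated as estimated counts. It holds whole numbers for 32519 genes, 29200 of them with a symbol, and the sources do not settle how these numbers were made. In every library the commonest value above 0 was 4, and the totals exceed the reads sequenced, so 12 was taken as the floor. Genes were filtered with filterByExpr, scaled by TMM and tested without a block in edgeR 4.0.16 (R 4.3.3, glmQLFTest), a test chosen for counts and kept, with p-values adjusted by Benjamini-Hochberg over all 19353 genes tested. A gene was called at an adjusted p under 0.05. The standard errors given are approximate. They were derived as the absolute log2 fold change divided by the square root of the F statistic of the edgeR test. The procedure was tested on simulated data. It recovered 27 of 97 genes with a true absolute log2 fold change of 1 and 50 of 91 with one of 2, with 8 false calls. A gene that was not called is therefore not shown to be unchanged. DESeq2 1.42.0, other scalings and filters, counts divided by 4, the replicate block and leaving out each library were the alternatives.

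Members and lists were chosen with earlier results of these data known. Genes named are the called members, all tested tap, tapbp, b2m, cd74, ciita, psme and inducible beta subunit genes, the 3 mhc genes and the 3 constitutive subunits with the highest mean CPM, the 2 of each with the largest absolute fold change, and the called pathway genes. Other genes in the text were picked with their values in view. Gene order was read from RefSeq GRCz12tu, which is not the build of the counts, and no coordinates or sequences are given. Plots were made in Python 3.11.15 with matplotlib 3.10.9.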

Additional observations from a re-analysis of the deposited data

How the results depend on the processing

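Under total-count scaling 2 members were called (PSMA4 and tap2t), under DESeq2 6, with counts divided by 4 3 (TAP1, psma6l and tap2t), and with all genes of at least 1 count or with the replicate block 0. Among the constitutive subunits, total-count scaling (PSMA4), DESeq2 and counts divided by 4 (psma6l in both) each gave 1 call. Among the haplotype-variable genes the filter of 1 count and the block gave 0 calls. Over all genes DESeq2 made 2368 calls and the block 325. With 1 library left out, the calls were 380 to 553 over all genes, 0 to 1 among the members and 0 to 1 among the haplotype-variable genes, whose median log2 fold change ran from -0.074 (without WT library 1) to 0.90 (without WT library 3). With the replicate block that median was 0.51. The cause of these changes was not tested. Replicate numbers did not pair the libraries, since same-numbered libraries correlated at -0.07, 0.08 and -0.02 in their deviations, and the block is given here only. RLE and upper-quartile scaling and the filter on a mean of 10 counts kept each of these counts within 1.5 times of its value. Of the single named genes, 471 values kept their side of the threshold, 14 lost it and 5 gained it. No called value changed sign, but 14 of the 490 values did, all of genes that were not called, in 8 genes (PSMB4, PSMB8, PSMB9, PSME3, PSME4 ENSDARG00000018742, psmb12, tap2a and tapbp.1), 13 of them with a library left out. Many MHC genes had too few counts for a test, and 3 libraries of each genotype limit the rest.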
